A study of Homo sapiens with 12 samples.

Results

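RNA-seq of MiaPaca2 cells that received calcipotriol on top of epigenetic priming (CPT+GTA+5-Aza) was compared with RNA-seq of vehicle-treated cells (Con). The comparison takes 6 of the 12 libraries of the series, chosen by their sample labels, with 3 libraries in each group, and covers the 17123 genes that passed the filter on low counts out of 63677 identifiers listed. MiaPaca2 is an established human line of pancreatic ductal adenocarcinoma, used here without genetic change. Con cells were given DMSO. CPT+GTA+5-Aza cells were given CPT (calcipotriol, a Vitamin D analogue) at 1 µM, GTA (glyceryl triacetate, a source of acetate) at 2 mM and 5-Aza (5-Aza-2′-deoxycytidine, an inhibitor of DNA methyltransferases) at 1 µM, and treatment lasted 24 h. The remaining 6 libraries, CPT alone and GTA+5-Aza alone, carry the same doses of their agents. They enter the filter, the scaling and the estimate of spread, and their levels are given where they place the combination. The methods of the study speak of independent samples in each experiment, but neither they nor the labels say whether the libraries of a group came from separate cultures, so p-values measure the spread between these libraries.

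Calcipotriol binds the vitamin D receptor, a nuclear receptor that pairs with a retinoid X receptor on DNA and recruits histone acetyltransferases. 5-Aza-2′-deoxycytidine is built into DNA and traps DNA methyltransferases, so that methylation is lost as cells divide. Genes long known to respond to such agents include germline genes of the cancer-testis class, imprinted genes and genes of the interferon response. Acetate is turned into acetyl-CoA, the donor for histone acetylation, and acetylated histones are typical of active genes.

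Total counts per library were 19281290 to 21224665 in Con and 16162490 to 18676151 in CPT+GTA+5-Aza. Levels are given as CPM, the share of a library's TMM-scaled counts expressed per 1e6, and fold changes and p-values come from the quasi-likelihood test of edgeR, adjusted by Benjamini-Hochberg over all tested genes. Because RNA was taken from whole cultures, fewer cells with a transcript and less transcript per cell cannot be told apart. Pairs of replicates differed by 4.91 to 7.74 in chi-square per degree of freedom in Con and by 3.99 to 4.13 in CPT+GTA+5-Aza, so none was another library sequenced again. These values do not show whether the libraries came from separate cultures. The keratin genes KRT8 and KRT18 were at 1500 to 1700 and at 684 to 854 CPM over the 6 libraries, while the epithelial marker EPCAM had at most 1 count. Vimentin (VIM), a mesenchymal filament protein, was at 5430 to 6270 CPM. Of the other mesenchymal markers, ZEB1 was at 46.2 to 63.7 CPM, FN1 at 2.38 to 3.54 CPM, and CDH2 had at most 4 counts. Among the acinar and endocrine markers CTRB1 was highest, with at most 6 counts, and the others included PRSS1, CPA1, INS and GCG with a count of 0 in every library. The fibroblast-type collagen genes COL1A2 and COL3A1 were present (COL1A2 at 789 CPM in Con replicate 1), whereas LUM had a count of 0 and DCN at most 2 counts.

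Far more genes were higher than lower in the combination. With an adjusted p under 0.05 and a fold change above 1.5, 805 genes were upregulated (4.7% of those tested) and 177 were downregulated (1.03%). An unadjusted P under 0.05 with the same fold change gave 1109 upregulated (6.48%) and 315 downregulated genes (1.84%), and a test against a change of up to 1.5-fold (glmTreat in edgeR) at that unadjusted P gave 709 and 142. The methods of the study do not say whether its P was adjusted, and their wording allows either kind of test. Without the fold threshold the split was more even, with 1648 genes higher (9.62%) and 1226 genes lower (7.16%) by the adjusted p, and the median log2 fold change over all genes was 0.00648. In glmTreat with the adjusted p, 175 genes passed as higher and 21 as lower.

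**Figure D1:**
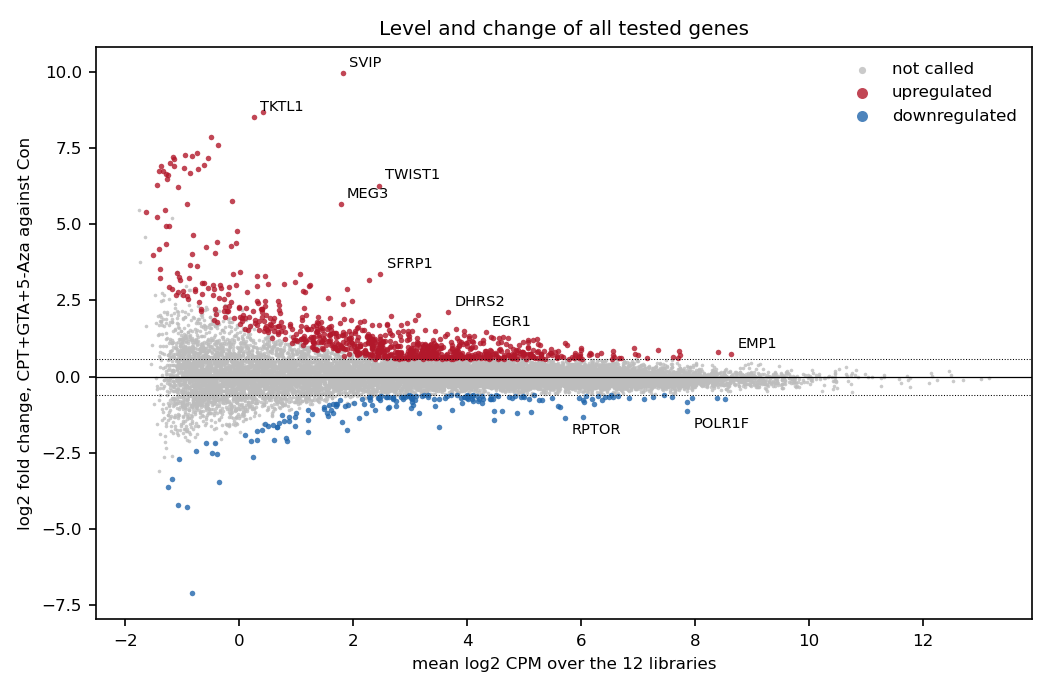
Log2 fold change of CPT+GTA+5-Aza against Con (vertical axis) by mean log2 CPM over the 12 libraries (horizontal axis), 1 point for each tested gene. Upregulated genes (red, adjusted p under 0.05 and fold change above 1.5, dotted lines) number 805 and the largest changes are at low levels, where fitted values depend on the prior count, while the 177 downregulated genes (blue) include the abundant POLR1F.

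The upregulated genes were mostly of low abundance. Their median mean level was 4.13 CPM in Con and 8.26 CPM in the combination, and 178 of the 805 were under 1 CPM in Con while 8 were above 100 CPM. Fold changes above 2 were found for 409 of them, above 4 for 132 and above 8 for 68, with a median of 2.02. At most 2 counts in each Con library were found for 45 of them, and the fitted folds of these depend on the prior count. In 777 the 3 libraries of the combination all lay above the 3 of Con, against 18.8% of all tested genes. Calls in either direction were made on these same libraries, so such separation largely follows from the call and is given as a description. The downregulated genes had a median of 10.1 CPM in Con and 6.01 CPM in the combination, and a median fold change of 1.71. Of these 177 genes, 62 had changed more than 2-fold, 17 more than 4-fold and 6 more than 8-fold. No overlap between groups was seen for 175 of them, against 17% of all tested genes. Protein-coding genes made up 690 of the upregulated and 121 of the downregulated genes, and lncRNA genes 75 and 36. Summed over the called genes, Con held 8167 CPM of the upregulated set and the combination 14560, and the downregulated set went from 6244 to 3660.

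A smaller set of genes was silent in Con and read in the combination. Over all 63677 identifiers, 13 (0.0204%) had at most 2 counts in each Con library and at least 10 counts in each library of the combination, and 1 (0.00157%), the lncRNA SLC25A28-DT, had the opposite pattern with 15 to 21 counts in Con and at most 1 in the combination. Con had the larger total counts. Of the 13, 10 are protein-coding genes (SVIP, TKTL1, DUSP10, KCTD12, FAM50B, CACNA1H, FLNC, KALRN, NR5A1 and DOC2B) and 3 are lncRNA genes. At least 10 counts in every GTA+5-Aza library were seen for 10 of the 13, and 9 of the 13 had at most 2 counts in every CPT library.

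SVIP (ENSG00000198168, chromosome 11 from 22813799 to 22830299), whose small protein inhibits the p97/VCP step of protein degradation at the endoplasmic reticulum, had no count in any Con library. Its levels in the combination were 7.71, 5.51 and 6.49 CPM, at least 41.6-fold above the 3 counts that a count of 0 allows in a Con library (adjusted p = 7.8e-11). TKTL1 (ENSG00000007350, chromosome X from 154295795 to 154330350), a transketolase-like gene also used in germ cells, was at 0 in Con and at 2.06, 3.18 and 1.96 CPM in the combination, at least 15.2-fold higher (adjusted p = 1.98e-06). DUSP10 (ENSG00000143507, chromosome 1 from 221701424 to 221742089), a phosphatase of the stress kinases JNK and p38, had 0.105, 0 and 0 CPM in Con against 1.69, 2.16 and 2.69 CPM, at least 13.8-fold higher. These 3 genes were picked as upregulated with at most 2 counts in every Con library. They passed the filter on low counts only through libraries outside Con. The separation of all combination libraries from all Con libraries, and the adjusted p, are therefore given as a description. Lower bounds for the next silent genes were 11-fold for KCTD12, 9.73-fold for the imprinted gene FAM50B, 8.05-fold for the calcium channel gene CACNA1H, 6.72-fold for the filamin gene FLNC and 6.66-fold for the cancer-testis gene SSX3. The SSX genes are near-identical, so reads may have been split between copies.

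The sequences around the start of the 3 silent genes with the highest level in the combination are shown with those of the first 2 downregulated genes that have an entry in the promoter table, since 5-Aza blocks the methylation of CpG sites. Each is 300 bases, 250 before the start and 50 after it, from RefSeq on GRCh38.p14, written 5′ to 3′ on the strand of the gene with each CpG in capitals. The windows are chr11:22829330-22829629 (minus strand) for SVIP, chrX:154295545-154295844 (plus) for TKTL1, chr1:221742040-221742339 (minus) for DUSP10, chr7:19708988-19709287 (minus) for POLR1F and chr17:80544588-80544887 (plus) for RPTOR.
SVIP: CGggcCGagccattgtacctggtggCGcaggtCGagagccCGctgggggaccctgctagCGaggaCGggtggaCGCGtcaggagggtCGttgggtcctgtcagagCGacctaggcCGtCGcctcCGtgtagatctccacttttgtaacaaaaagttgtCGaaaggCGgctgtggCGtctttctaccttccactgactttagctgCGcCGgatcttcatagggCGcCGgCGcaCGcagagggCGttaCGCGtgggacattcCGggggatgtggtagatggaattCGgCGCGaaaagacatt
TKTL1: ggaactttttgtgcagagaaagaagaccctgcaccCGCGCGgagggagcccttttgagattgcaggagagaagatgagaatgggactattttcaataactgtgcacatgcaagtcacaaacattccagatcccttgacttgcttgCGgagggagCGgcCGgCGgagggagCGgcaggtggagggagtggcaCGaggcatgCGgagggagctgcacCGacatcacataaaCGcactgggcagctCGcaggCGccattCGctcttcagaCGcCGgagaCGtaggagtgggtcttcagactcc
DUSP10: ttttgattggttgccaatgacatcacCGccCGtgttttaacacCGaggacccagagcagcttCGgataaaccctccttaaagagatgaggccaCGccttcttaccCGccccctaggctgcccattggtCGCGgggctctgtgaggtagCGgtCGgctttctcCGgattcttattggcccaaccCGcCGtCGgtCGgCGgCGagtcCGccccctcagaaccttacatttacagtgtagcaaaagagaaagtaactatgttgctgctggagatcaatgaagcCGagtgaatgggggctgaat
POLR1F: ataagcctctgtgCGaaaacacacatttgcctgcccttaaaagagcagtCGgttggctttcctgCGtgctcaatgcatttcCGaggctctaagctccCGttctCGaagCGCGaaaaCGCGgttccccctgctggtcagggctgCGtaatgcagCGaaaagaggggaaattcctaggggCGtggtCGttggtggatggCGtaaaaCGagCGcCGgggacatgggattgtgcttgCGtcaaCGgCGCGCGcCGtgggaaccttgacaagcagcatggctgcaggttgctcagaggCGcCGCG
RPTOR: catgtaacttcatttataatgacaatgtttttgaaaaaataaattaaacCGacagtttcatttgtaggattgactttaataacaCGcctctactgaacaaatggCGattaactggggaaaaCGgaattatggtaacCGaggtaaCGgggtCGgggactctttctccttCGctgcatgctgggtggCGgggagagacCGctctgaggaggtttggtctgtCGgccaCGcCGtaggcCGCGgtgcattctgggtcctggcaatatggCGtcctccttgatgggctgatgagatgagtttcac
SVIP holds 30 CpGs, TKTL1 18, DUSP10 19, POLR1F 27 and RPTOR 16. Over 300-base windows read from GRCh38 at the annotated 5′ ends, the median number of CpGs was 22 for the 690 upregulated protein-coding genes, 20 for the 121 downregulated ones and 23 for all tested ones. The 38 upregulated protein-coding genes with at most 2 counts in each Con library had a median of 23, and the 884 tested genes that were under 1 CPM in Con and were not called had 15. No methylation was measured in these libraries.

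Among the upregulated genes with the smallest p were several that were already well expressed in Con. PTX3 (ENSG00000163661, chromosome 3 from 157436850 to 157443633), which encodes a secreted pattern-recognition protein, was at 154, 153 and 149 CPM in Con and at 280, 278 and 270 CPM in the combination. Its log2 fold change was 0.86 (SE 0.05, adjusted p = 5.15e-11). A small p and no overlap between the groups were conditions for picking PTX3. EMP1 (ENSG00000134531), a membrane protein gene, rose from 302 ± 12.2 to 502 ± 6.78 CPM (SD, n = 3), and the lncRNA UCA1 (ENSG00000214049) from 246 ± 6.1 to 429 ± 7.8 CPM. The groups did not overlap for either gene, and for EMP1 this was a condition of being picked. COL6A3, a chain of collagen VI, was at 81, 82.5 and 87.0 CPM in Con and 167, 155 and 157 CPM in the combination (log2 fold change 0.94, SE 0.07). DNMBP rose from 94.3 to 158 CPM, CAPRIN2 from 160 to 260 CPM, FHOD1, a formin that builds actin fibres, from 36.5 to 75.5 CPM, and ENO2, the neuronal enolase, from 34.0 to 72.9 CPM. Adjusted p-values of these 4 ran from 2.91e-09 to 9.47e-09.

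Other leading genes started from a few CPM or less. DHRS2 (ENSG00000100867, chromosome 14 from 23630115 to 23645639), a short-chain dehydrogenase gene, was at 5.21, 4.43 and 4.76 CPM in Con and 22.3, 20.5 and 19.7 CPM in the combination, a 4.34-fold rise (adjusted p = 2.76e-10). TWIST1 (ENSG00000122691, chromosome 7 from 19020991 to 19117636), a transcription factor of the epithelial-mesenchymal transition, was at 0, 0.381 and 0 CPM in Con and at 11, 10.2 and 10.7 CPM in the combination. Its log2 fold change was 6.27 (SE 0.45, adjusted p = 8.2e-10). SFRP1, a secreted antagonist of WNT ligands, was at 1.42, 0.905 and 0.729 CPM in Con and at 10.3, 8.29 and 12.9 CPM in the combination, 10.3-fold higher. CNN3, the acidic calponin, rose from 0.923 ± 0.0677 to 8.47 ± 1.1 CPM (adjusted p = 3.84e-08). For TWIST1, SFRP1 and CNN3 the lowest library of the combination was above the highest of Con. For TWIST1 and SFRP1 this was a condition of being picked.

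**Figure D2:**
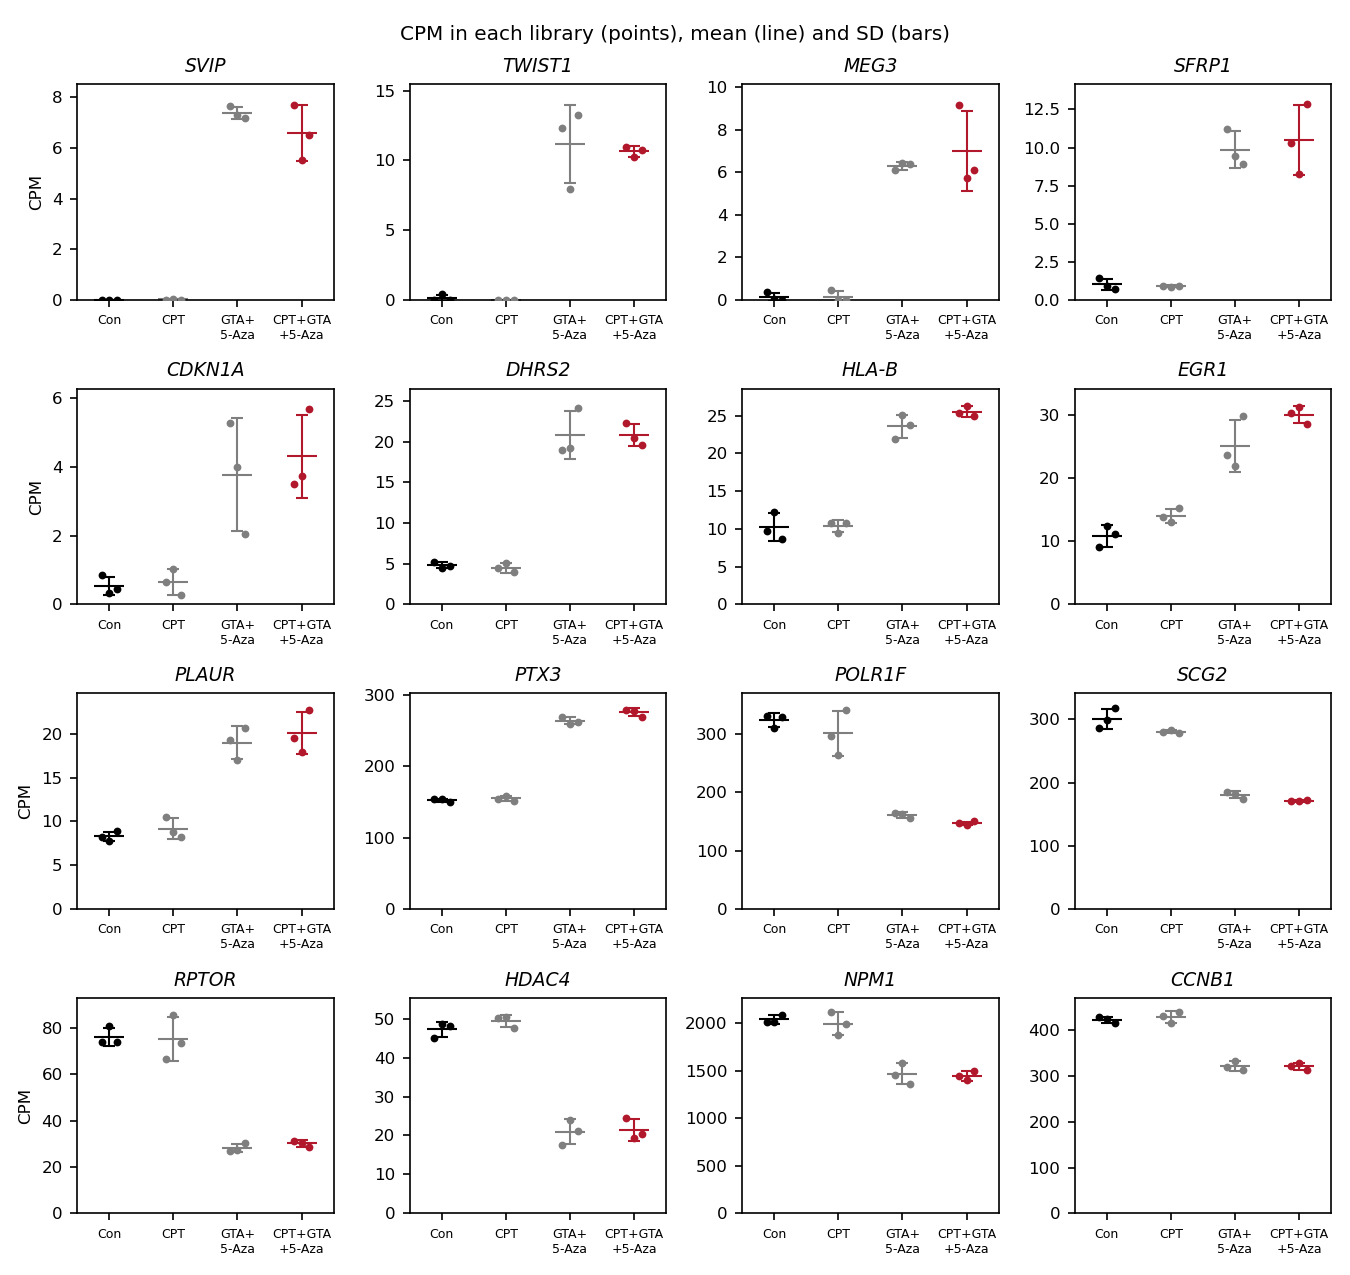
CPM of 16 genes in each of the 12 libraries (points), with the group mean (line) and SD (bars), each panel on its own axis from 0. The 3 libraries of CPT+GTA+5-Aza (red) lie wholly above Con (black) for the 10 genes from SVIP to PTX3 and wholly below it for the 6 genes from POLR1F to CCNB1, with the CPT and GTA+5-Aza libraries in grey.

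Downregulation was led by POLR1F (ENSG00000105849, chromosome 7 from 19695461 to 19709037), which encodes a subunit of RNA polymerase I. It was at 331, 309 and 329 CPM in Con and at 147, 144 and 150 CPM in the combination, a log2 fold change of -1.14 (SE 0.07, adjusted p = 5.15e-11). SCG2, secretogranin II of secretory granules, was at 286, 299 and 317 CPM in Con against 171, 170 and 173 CPM, 1.76-fold lower. RPTOR (ENSG00000141564, chromosome 17 from 80544819 to 80966371), the raptor subunit of mTORC1, was at 74.1, 80.8 and 74.0 CPM in Con and 31.4, 30.5 and 28.5 CPM in the combination, 2.53-fold lower (adjusted p = 1.91e-10). HDAC4, a class IIa histone deacetylase, was at 45.1, 48.6 and 48.0 CPM against 24.5, 19.4 and 20.3 CPM, 2.21-fold lower. No overlap between the groups was a condition of the rule that picked these 4 genes. TNS3, the focal adhesion protein tensin 3, fell from 416 to 257 CPM, and INPP5A, a phosphatase of inositol phosphates, from 38.5 to 16.7 CPM. The guidance ligands SEMA3A and SEMA3C fell from 468 to 282 and from 304 to 189 CPM, and the guidance receptor EPHA4 from 177 to 107 CPM. IKZF2, a zinc finger factor, fell from 63.6 to 32.4 CPM, TGFBR3, a co-receptor for TGF-beta, from 95.2 to 51.5 CPM, and MAD1L1, of the spindle checkpoint, from 64.5 to 32.7 CPM.

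Downregulation was most frequent in long genes. Of 376 tested protein-coding genes that span 300 kb or more, 37 were downregulated (9.84%) and 12 upregulated (3.19%), whereas of 4446 genes under 20 kb 23 were downregulated (0.517%) and 304 upregulated (6.84%). Of the 7 genes of 300 kb or more that lie under 2 Mb from a chromosome end, 4 were downregulated, and of the 369 farther away, 33 (8.94%). The share of upregulated genes also moved with the GC content of the transcript, from 2.0% in the lowest of 5 equal classes to 9.32% in the highest, while the share of downregulated genes was 1.12% and 1.0%. Median log2 fold changes were -0.0818 and 0.158 in those classes. After a correction for the GC trend of each library, which was added once the data had been seen, 733 genes were upregulated and 205 downregulated, so the excess of upregulated genes was smaller and kept its direction.

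**Figure D3:**
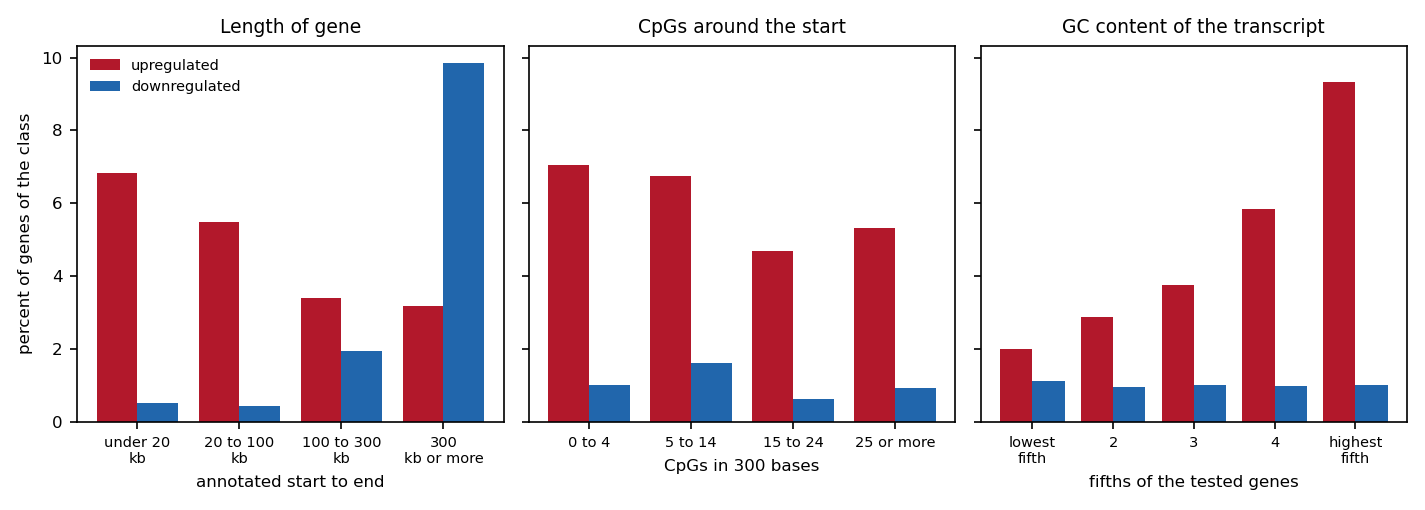
Percent of tested genes upregulated (red) and downregulated (blue) in CPT+GTA+5-Aza against Con by length of the gene (protein-coding genes), by number of CpGs in 300 bases around the annotated 5′ end (protein-coding genes) and by transcript GC content in 5 equal classes (all genes with a value). Downregulation is most frequent in genes of 300 kb or more (9.84%) and upregulation in the highest GC class (9.32%), while the classes of CpG number range from 4.68% to 7.06% upregulated.

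The genes that the study names from its RNA-seq were then examined in this comparison. It chose them on these samples, so their directions are no independent evidence, and it took them from other comparisons of the same libraries. CDKN1A, DUSP10, NOG, DOCK1, EFNA1, HEY1 and TGFB2 came from GTA+5-Aza against Con, SHH and CCNG2 from CPT against Con, and MT1G and RAC2 from the combination against GTA+5-Aza, so a gene that does not pass here was named for another comparison. CDKN1A (ENSG00000124762, chromosome 6 from 36676460 to 36687337), which encodes the CDK inhibitor p21, was at 0.841, 0.334 and 0.438 CPM in Con and at 3.49, 3.75 and 5.69 CPM in the combination (log2 fold change 3.0, SE 0.45, adjusted p = 2.86e-05). NOG, the BMP antagonist noggin, was at 20.4 ± 1.78 CPM in Con and 46.9 ± 2.83 CPM in the combination (SD, n = 3), 2.3-fold higher (adjusted p = 2.33e-08). DOCK1, an activator of RAC, was at 102, 93.9 and 99.0 CPM against 61.2, 59.3 and 67.9 CPM, 1.57-fold lower. None of these 3 overlapped between groups. The metallothionein MT1G rose from 0.214 to 1.65 CPM (adjusted p = 0.0113), a call that was lost without Con replicate 1 (adjusted p = 0.0541), Con replicate 3 (0.0602) or CPT+GTA+5-Aza replicate 1 (0.066). SHH, the Hedgehog ligand, was at 14.9, 21.7 and 19.2 CPM in Con and 26.4, 29.0 and 27.6 CPM in the combination, which passed the test (adjusted p = 0.00141) with a fold change of 1.49. DUSP10 is described above. EFNA1, TGFB2, HEY1, CCNG2 and RAC2 did not pass, nor did VDR, which was added to the genes named from the RNA-seq. The ligand gene EFNA1 had means of 5.61 CPM in Con and 6.24 CPM in the combination (adjusted p = 0.69), and TGFB2, a TGF-beta ligand, 1.8 and 1.73 CPM (adjusted p = 0.943). HEY1, a target of Notch, had 3.87 and 2.0 CPM (adjusted p = 0.08), which passed in other settings, with adjusted p = 0.0219 when only the 2 groups entered the fit. CCNG2, an unusual cyclin, had 8.93 and 7.24 CPM (adjusted p = 0.314) and RAC2, a small GTPase, 1.06 and 1.61 CPM (adjusted p = 0.349). VDR, the receptor of calcipotriol, was at 1.53, 1.62 and 1.46 CPM in Con and 1.48, 1.53 and 1.22 CPM in the combination (adjusted p = 0.879). CYP24A1, the vitamin D 24-hydroxylase, had too few counts to be tested.

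Gene lists written by hand were counted next, with a call at an adjusted p under 0.05 and read against 9.62% of all genes higher and 7.16% lower. Members and lists were chosen with earlier results of these data known, so an excess over those shares is given as a description. Counts are over the members that passed the filter on low counts, which a gene could also pass through its level outside Con. Of 21 matrix proteases and their inhibitors 12 were higher and 0 lower by that test, and their median on the log2 scale was 0.525. PLAU, the protease urokinase, rose from 98.3 to 140 CPM. PLAUR, the receptor of urokinase, was at 8.2, 7.82 and 8.85 CPM against 19.6, 18 and 22.7 CPM (log2 fold change 1.28, adjusted p = 4.2e-07). The protease ADAMTS1 was at 0 in Con and at 0.944 CPM in the combination, at least 5.98-fold higher. The libraries of the combination were above those of Con for the protease receptor PLAUR. ADAMTS1 passed the filter on low counts only through libraries outside Con and could not have been lower. Its rise is therefore given as a description. Collagen genes were higher for 6 of 20 and lower for 1, COL5A2, which fell from 977 to 786 CPM. COL1A1 rose from 0.135 to 1.44 CPM (adjusted p = 0.000959).

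Of 27 genes for AP-1, EGR and KLF factors and other immediate-early products, 13 were higher and 2 lower (median log2 fold change 0.429). EGR1, an immediate-early zinc finger factor, was at 9.04, 12.4 and 11.1 CPM in Con and 30.3, 31.3 and 28.7 CPM in the combination (log2 fold change 1.47, adjusted p = 2.33e-08). IER3 rose from 4.9 to 14.3 CPM, JUNB 2.06-fold, JUN from 51.1 to 77.2 CPM, NR4A1 from 0.353 to 3.75 CPM and KLF2 from 73.3 to 121 CPM. FOSL2 and KLF4 were the 2 lower members, at 251 and 193 CPM and at 8.21 and 4.08 CPM. Among 24 MAP kinase phosphatases and feedback inhibitors 10 were higher and 2 lower (median 0.347). ETV4, an ETS factor induced by ERK signalling, rose from 43.3 to 83.5 CPM, SPRY4, an inhibitor of that pathway, from 175 to 238 CPM, and the EGF-family ligand AREG from 4.37 to 9.26 CPM, while the related ligand EREG fell from 271 to 211 CPM. IER3 and DUSP10 stand in this list too.

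Genes of innate immunity were higher in part, and none of the interferon-stimulated genes was lower. Of 38 interferon-stimulated genes 15 were higher and 0 lower (median log2 fold change 0.527), and 23 did not pass. OASL, of the oligoadenylate synthetase family, was at 2.79, 1.57 and 2.14 CPM in Con and at 6.07, 8.0 and 4.71 CPM in the combination (adjusted p = 0.000203). OAS3, which makes the activator of RNase L, was at 3.21, 3.0 and 2.24 CPM against 5.39, 7.49 and 6.92 CPM, and IFIT3 at 6.42, 7.05 and 8.85 CPM against 14.4, 12.3 and 13.7 CPM. ISG15, a ubiquitin-like modifier, rose from 16.5 to 24.9 CPM and its conjugating enzyme UBE2L6 from 7.82 to 14.3 CPM. IFITM2 and IFITM3, which share most of their sequence, rose from 20.8 to 31.5 and from 14.5 to 22.4 CPM, and reads may have been split between them. The summed level of the 38 genes was 495 to 537 CPM in Con and 644 to 661 CPM in the combination. In the RefSeq promoter windows the core of the interferon-stimulated response element, read as GAAA, any 2 bases and GAAA again, was present on either strand in 9 of 12 higher members with an entry (75%), in 14 of 19 that did not pass (73.7%) and in 3.65% of all 27305 windows.

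Of 22 nucleic acid sensors, interferons and their transcription factors 7 were higher and 1 lower. The number higher was 4 without Con replicate 3 and 4 without CPT+GTA+5-Aza replicate 3, and the number lower 2 without Con replicate 2 or 3. IRF1, an activator of interferon-response genes, rose from 11.1 to 17.8 CPM. The RNA sensor gene IFIH1 rose from 0.417 to 1.59 CPM, a call lost without Con replicate 3 (adjusted p = 0.0725). STAT3, the most abundant of the called members, was at 165, 148 and 164 CPM in Con and 117, 107 and 114 CPM in the combination (log2 fold change -0.5, adjusted p = 7.11e-06). Of 20 HLA class I and antigen processing genes 9 were higher and 1 lower, and the lower call was lost whichever library was left out. HLA-B was at 9.73, 12.2 and 8.7 CPM in Con and at 25.4, 26.3 and 24.9 CPM in the combination (adjusted p = 8.06e-08), HLA-C at 3.42 and 11.1 CPM on average and HLA-E at 75.6 and 114 CPM. These genes are near copies of each other, so their separate levels are uncertain. TAP1, of the peptide transporter, rose 1.69-fold to 33.8 CPM (adjusted p = 4.19e-05). Among 23 chemokines, cytokines and inflammatory secreted factors 9 were higher and 2 lower. LIF, a cytokine of the interleukin-6 family, was at 20.7, 21.5 and 22.2 CPM in Con and 41.7, 48.3 and 53.2 CPM in the combination, the chemokine CXCL1 rose from 16.6 to 29.8 CPM, and NFKB2 from 25 to 45.3 CPM. CSF1 fell from 83.8 to 61.9 CPM and NFKBIA, the inhibitor of NF-kappa-B, from 84.6 to 67.8 CPM.

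Some germline and imprinted genes were higher, several from a very low base. Of 67 cancer-testis and germline genes listed 14 passed the filter, 6 of them with at most 2 counts in every Con library. Those 6 passed only through other libraries and could not have been lower, so the 7 higher and 0 lower of the 14 are given as a description. CTCFL, the testis paralogue of CTCF, was at 0 in Con and at 1.0, 1.31 and 0.429 CPM in the combination, at least 5.79-fold higher, and MAGEB2 at least 3.72-fold higher. PRAME, already active in this line, rose from 33.8 to 45.3 CPM. The number higher was 4 in DESeq2 and 4 when only the 2 groups entered the fit. The summed level of the tested members was 55.7 to 63.6 CPM in Con and 84.5 to 88.6 CPM in the combination. Of 15 imprinted genes 4 were higher and 0 lower. MEG3 (ENSG00000214548, chromosome 14 from 100779410 to 100861031), the maternally expressed lncRNA, was at 0.368, 0.0477 and 0 CPM in Con and at 9.19, 5.73 and 6.12 CPM in the combination (log2 fold change 5.66, adjusted p = 9.18e-08). DLK1, the paternally expressed gene of the same cluster, rose from 0.525 to 1.67 CPM (adjusted p = 0.0266), a call lost without Con replicate 1 (0.0934), Con replicate 3 (0.0812) or CPT+GTA+5-Aza replicate 2 (0.119). H19 rose from 21.6 to 33.0 CPM and PHLDA2 from 26 to 41.3 CPM. None of the 16 HOX genes tested passed the edgeR test after adjustment (3 at an unadjusted P under 0.05, 0 in DESeq2 after adjustment). Some other settings gave calls, with 2 higher in the exact test and 1 higher without Con replicate 2. The likelihood ratio test, the fit of only the 2 groups and scaling by library size each gave 1 higher. So did a filter at 1 CPM, the replicate block and removal of the GC trend.

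**Figure D4:**
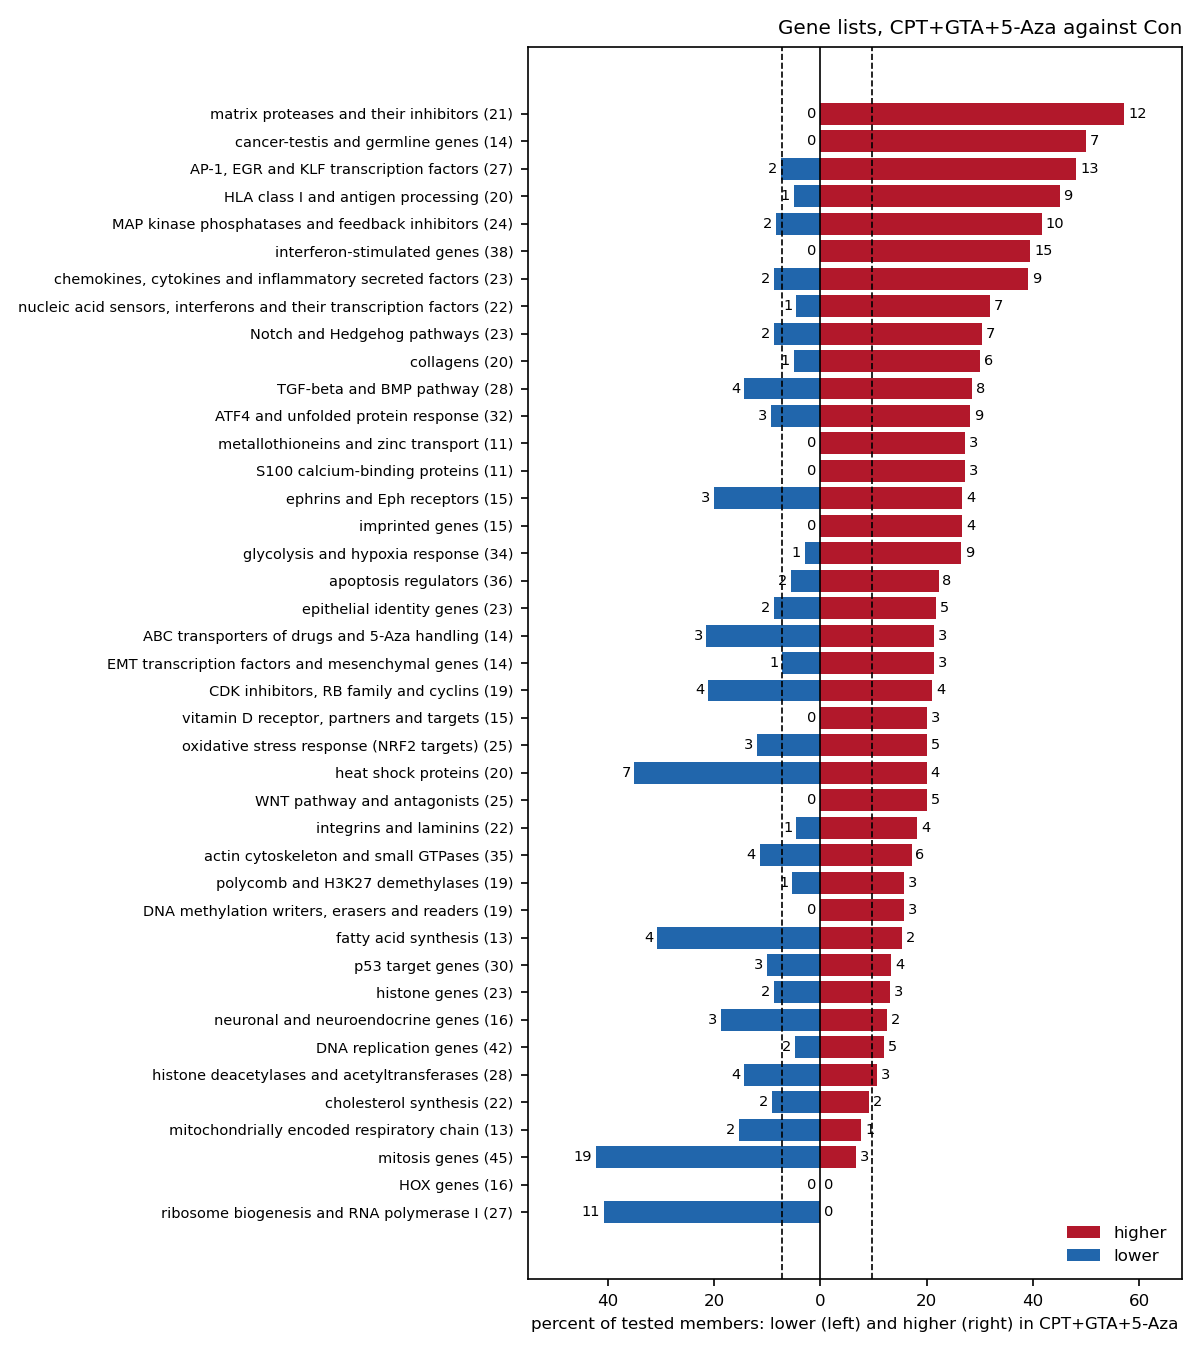
Percent of the tested members of each gene list (number tested in brackets) that were higher (red, right) or lower (blue, left) in CPT+GTA+5-Aza against Con at an adjusted p under 0.05, with the number of genes beside each bar, for lists with at least 10 tested members. The dashed lines are the shares over all tested genes, 9.62% higher and 7.16% lower, and the matrix proteases (12 of 21 higher) and the mitosis list (19 of 45 lower) lie toward opposite ends, while the cancer-testis bar includes 6 members with at most 2 counts in every Con library. Members and lists were chosen with earlier results of these data known.

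Part of the ribosome biogenesis and mitosis lists was lower, by small amounts. Of 27 genes of ribosome biogenesis and RNA polymerase I 11 were lower and 0 higher (median log2 fold change -0.206). NPM1, the nucleolar chaperone nucleophosmin, was at 2020, 2010 and 2090 CPM in Con and at 1440, 1400 and 1500 CPM in the combination (log2 fold change -0.5, SE 0.05, adjusted p = 1.32e-07). NCL, nucleolin, was at 1610, 1590 and 1660 CPM against 1260, 1240 and 1260 CPM, and POLR1A, the large subunit of RNA polymerase I, fell from 208 to 164 CPM. No Con library reached as low as the combination for these 3 genes, which were picked from the list for their small p. The summed level of the list was 7610 to 7720 CPM in Con and 6150 to 6250 CPM in the combination. POLR1F, described above, is not in the list. Of 45 mitosis genes 19 were lower and 3 higher (median -0.18). CCNB1, cyclin B1, was at 428, 424 and 415 CPM in Con and 323, 327 and 313 CPM in the combination (adjusted p = 3.69e-06), and KIF20A, a kinesin of cytokinesis, at 224, 222 and 247 CPM against 181, 168 and 164 CPM. TPX2, CENPE, PLK1 and AURKA fell from 597 to 472, from 177 to 121, from 242 to 186 and from 209 to 166 CPM. The 3 higher members were UBE2C, CDK1 and AURKB, from 137 to 166, from 151 to 184 and from 140 to 170 CPM. Of 42 DNA replication genes 5 were higher and 2 lower, with the licensing factor CDT1 rising from 99.0 to 130 CPM. The number higher fell to 2 without Con replicate 1 and 3 without Con replicate 3, and the number lower to 1 without any 1 library other than Con replicate 2.

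No gene of the mitosis or ribosome biogenesis lists passed the test with a fold change above 1.5. Among 20 heat shock proteins 7 were lower and 4 higher (median -0.117). The lower ones included abundant chaperones, with HSP90AB1 from 3870 to 3100 CPM, HSPA8 from 2730 to 2210 CPM and HSPD1, the mitochondrial chaperonin, from 1570 to 1200 CPM. HSPA2, of low abundance, was at 5.1, 5.1 and 10.0 CPM in Con and at 21.9, 22.4 and 15.1 CPM in the combination. Fewer heat shock genes were higher when Con replicate 1 (2), Con replicate 3 (1) or CPT+GTA+5-Aza replicate 1 (2) was left out. Of 32 genes of the ATF4 and unfolded protein response 9 were higher (5 without Con replicate 1, 5 without CPT+GTA+5-Aza replicate 1) and 3 lower (1 without CPT+GTA+5-Aza replicate 2). The serine synthesis gene PHGDH rose from 11.7 to 25.2 CPM and the asparagine synthetase ASNS from 38.5 to 62.1 CPM, while SLC7A11, the cystine transporter, fell from 113 to 71.4 CPM. Of 34 glycolysis and hypoxia genes 9 were higher and 1 lower. The lower one was HIF1A, an oxygen-regulated transcription factor, at 297 and 250 CPM, a call lost without Con replicate 1 (adjusted p = 0.0536) or CPT+GTA+5-Aza replicate 3 (0.0501).

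Cell cycle inhibitors changed in both directions. Of 19 CDK inhibitors, RB family members and cyclins 4 were higher, among them CDKN1A and SFN (0.415 to 2.15 CPM), and 4 lower. CDKN1B, which encodes p27, was at 65.1, 55.9 and 64.1 CPM in Con and 43.4, 42.1 and 45.7 CPM in the combination (adjusted p = 0.000198), and RB1 fell from 85.7 to 66.1 CPM. Of 30 p53 target genes 4 were higher, with the death receptors TNFRSF10A and TNFRSF10B from 19.3 to 28.0 and from 69.9 to 94.3 CPM, and 3 lower.

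Among developmental pathways, 8 of 28 TGF-beta and BMP genes were higher and 4 lower. Besides NOG, the BMP antagonist CHRD was at 0.841, 0.524 and 1.26 CPM in Con and 4.6, 4.43 and 6.74 CPM in the combination, and the latent TGF-beta binding proteins LTBP2 and LTBP4 rose from 15.3 to 32.9 and from 9.39 to 20.5 CPM. The receptors BMPR1A and BMPR2 fell from 84.4 to 67.2 and from 88.7 to 71.2 CPM. In the Notch and Hedgehog list 7 of 23 were higher, with the receptor NOTCH3 from 48.6 to 77.1 CPM and SMO from 48.1 to 73.0 CPM, and 2 lower, the ligand JAG1 (433 to 324 CPM) and NOTCH1 (130 to 105 CPM). Of 14 genes of the epithelial-mesenchymal transition 3 were higher, TWIST1 and ITGA5 among them, and 1 lower, VIM, from 6200 to 5580 CPM (adjusted p = 0.0519 without CPT+GTA+5-Aza replicate 1). ZEB1 was at 60.1 and 52.3 CPM (adjusted p = 0.17). Of 23 epithelial genes 5 were higher, 3 without any 1 of the libraries other than Con replicate 2, and 2 were lower, with JUP, plakoglobin, rising from 22.3 to 37.9 CPM and PKP3, plakophilin 3, falling from 55.0 to 38.3 CPM.

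The machinery that the agents address was counted in the same way. Of 28 histone deacetylases and acetyltransferases 3 were higher and 4 lower. Leaving out Con replicate 1 or CPT+GTA+5-Aza replicate 3 left 1 lower, and leaving out Con replicate 3 or CPT+GTA+5-Aza replicate 2 left 2. HDAC7, of the same class as HDAC4, rose from 29.3 to 49 CPM, and ACSS2, the acetyl-CoA synthetase that uses acetate, from 24.0 to 34.2 CPM. Of 19 DNA methylation genes 3 were higher and 0 lower, the methyltransferase DNMT3B (26 to 32.7 CPM), GADD45A (20.9 to 30.1 CPM) and ZBTB33, which encodes the reader Kaiso (35.5 to 44.6 CPM). Each call was lost without some library, and 0 were left without CPT+GTA+5-Aza replicate 2, with an adjusted p up to 0.137 for DNMT3B (without CPT+GTA+5-Aza replicate 3), 0.0756 for GADD45A (without Con replicate 3) and 0.142 for ZBTB33 (without CPT+GTA+5-Aza replicate 1). Of 19 polycomb and H3K27 demethylase genes 3 were higher and 1 lower (2 without Con replicate 2), with BMI1, a subunit of polycomb repressive complex 1, at 6.47, 4.1 and 4.62 CPM in Con and 9.98, 12.8 and 13.9 CPM in the combination. In the vitamin D list of 15 tested genes 3 were higher and 0 lower, SERPINB1 (37.1 to 55.1 CPM), NINJ1 (11.1 to 18.4 CPM) and RXRB, a partner of the receptor (37.3 to 48.1 CPM, adjusted p = 0.0668 without Con replicate 1).

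The remaining lists are given by their counts. Among WNT pathway genes and antagonists 5 of 25 were higher and 0 lower in edgeR, with SOX9, a transcription factor of the pancreatic duct, from 167 to 224 CPM beside SFRP1, and the number higher was 2 or 3 without any 1 library other than CPT+GTA+5-Aza replicate 3, while 2 were lower without Con replicate 3. SOX9 also stands among 9 pancreatic lineage factors, of which 4 were higher and 0 lower (1 without CPT+GTA+5-Aza replicate 1), with NR5A2 at 0 in Con and at least 3.27-fold higher. NR5A2 passed the filter on low counts only through libraries outside Con, so its rise is given as a description. Of 15 ephrins and Eph receptors 4 were higher and 3 lower (1 without CPT+GTA+5-Aza replicate 3), and the receptor gene EPHA2 rose from 227 to 293 CPM while its relative EPHA4 fell. Of 22 integrin and laminin genes 4 were higher, with ITGA5, a subunit of the fibronectin receptor, from 40.3 to 62.7 CPM, and LAMA2 was lower. Of 35 genes of the actin cytoskeleton 6 were higher (3 without Con replicate 1) and 4 lower, with the GTPase gene RHOB from 19.8 to 32.1 CPM and the non-muscle myosin MYH9 from 820 to 695 CPM. Of 36 apoptosis regulators 8 were higher (4 without Con replicate 1 or CPT+GTA+5-Aza replicate 1, 5 without CPT+GTA+5-Aza replicate 2 or 3) and 2 lower (1 without Con replicate 2, 0 without any other 1 library), with the caspase-8 inhibitor CFLAR from 77.7 to 101 CPM.

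In lipid metabolism the fatty acid list had 2 of 13 higher and 4 lower (2 lower without Con replicate 3 and 2 without CPT+GTA+5-Aza replicate 2), with the fatty acid synthase FASN from 742 to 599 CPM and the desaturase FADS1 from 70.0 to 98.9 CPM, and the cholesterol list 2 of 22 higher (4 without Con replicate 3 or CPT+GTA+5-Aza replicate 2) and 2 lower (0 without CPT+GTA+5-Aza replicate 3, 1 without any other 1 library apart from Con replicate 2). Of 25 NRF2 targets 5 were higher (1 to 3 without any 1 library) and 3 lower, and FTL, the ferritin light chain, rose from 1450 to 1800 CPM. Of 23 histone genes 3 were higher, H1-10 from 164 to 252 CPM among them, and 2 lower (1 without any 1 library other than Con replicate 2), H3-3B from 382 to 316 CPM among them. The metallothionein and zinc list had 3 of 11 higher and 0 lower, with 1 higher without Con replicate 1, Con replicate 3 or CPT+GTA+5-Aza replicate 1. The S100 list had 3 of 11 higher and 0 lower, with 1 higher without Con replicate 1. Of 14 genes for drug transporters and 5-Aza handling 3 were higher (1 without Con replicate 2, CPT+GTA+5-Aza replicate 1 or CPT+GTA+5-Aza replicate 3) and 3 lower (1 without CPT+GTA+5-Aza replicate 2 or 3). SLC29A1, a nucleoside transporter, rose from 124 to 151 CPM. Of 16 neuronal genes 2 were higher and 3 lower, and of 13 mitochondrially encoded genes 1 was higher and 2 lower (0 without Con replicate 3, 1 without Con replicate 1 or CPT+GTA+5-Aza replicate 1 or 2). None of 5 keratins outside simple epithelia passed the edgeR test (1 at an unadjusted P under 0.05, 1 in DESeq2 after adjustment). Where edgeR gave 0 members in a direction, DESeq2 also gave 0, apart from the higher keratin, and an unadjusted P under 0.05 added 4 lower genes in the WNT list, 1 each in the DNA methylation, metallothionein and S100 lists, and 0 in the others apart from the HOX and keratin genes given.

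The combination was then set against each of its parts. Against CPT alone, 851 genes (4.97%) were upregulated and 141 (0.823%) downregulated by the adjusted p and fold change. Against GTA+5-Aza alone, edgeR called 0 genes after adjustment, 464 (2.71%) had an unadjusted P under 0.05, and DESeq2 called 0. The interaction of CPT and priming, which asks whether the combination departs from the sum of both effects on the log scale, gave 0 genes in edgeR, 451 (2.63%) at an unadjusted P under 0.05 and 0 in DESeq2. CPT against Con likewise gave 0 genes in edgeR after adjustment and 733 (4.28%) at an unadjusted P under 0.05. If no gene differed, a share of 0.05 of the genes would be expected under that P. Each share at that P given here was lower. Pairs of CPT replicates differed by 7.22, 9.66 and 18.06 in chi-square per degree of freedom, against 4.91 to 7.74 in Con. Whether this spread hid effects of CPT was not tested. SVIP stood at 6.57 CPM in the combination and 7.37 CPM in GTA+5-Aza, a log2 difference of -0.17 with an SE of 0.24. For PTX3 the difference was 0.06 (SE 0.05), for POLR1F -0.13 (SE 0.07), for CDKN1A 0.18 (SE 0.37) and for DUSP10 0.9 (SE 0.55), so the interval is narrow for abundant genes and wide for rare ones.

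Among the genes closest to the threshold against GTA+5-Aza were LAMA2, the laminin alpha-2 chain, and TANC2, a scaffold protein gene. LAMA2 had means of 48.3 CPM in Con, 40.0 in CPT, 37.3 in GTA+5-Aza and 28.4 in the combination (combination against GTA+5-Aza log2 -0.39, unadjusted P = 0.000523 in edgeR). TANC2 had 189, 167, 141 and 119 CPM in the same order (log2 -0.25, unadjusted P = 0.00102 in edgeR). In the interaction, EFNA1, the ligand ephrin A1, had 5.61 CPM in Con, 3.7 in CPT, 3.69 in GTA+5-Aza and 6.24 in the combination (log2 1.35, SE 0.32, unadjusted P = 0.000228 in edgeR). ANKRD16 had 9.01, 12.7, 12.3 and 9.79 CPM in that order (log2 -0.82, unadjusted P = 0.000529). SHH had 18.6, 29.7, 20.6 and 27.7 CPM, and both groups with CPT had the higher means. After adjustment over all genes none of these differences passed.

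The called genes were also read in the other 6 libraries, GTA+5-Aza and CPT, fitted on their own. These libraries gave no value to the fold changes of the combination against Con, but they took part in the filter, the scaling and the spread behind its calls. Of the 805 upregulated genes 765 could be tested in GTA+5-Aza against CPT, where 758 were higher and 537 (70.2%) passed an adjusted p under 0.05, against 8.24% of all genes. Of the 177 downregulated genes 172 could be tested, 160 were lower and 75 (43.6%) passed, against 5.26% of all genes. Median log2 fold changes there were 0.90 for the upregulated and -0.52 for the downregulated genes, beside 0.97 and -0.77 in the comparison that chose them.

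**Figure D5:**
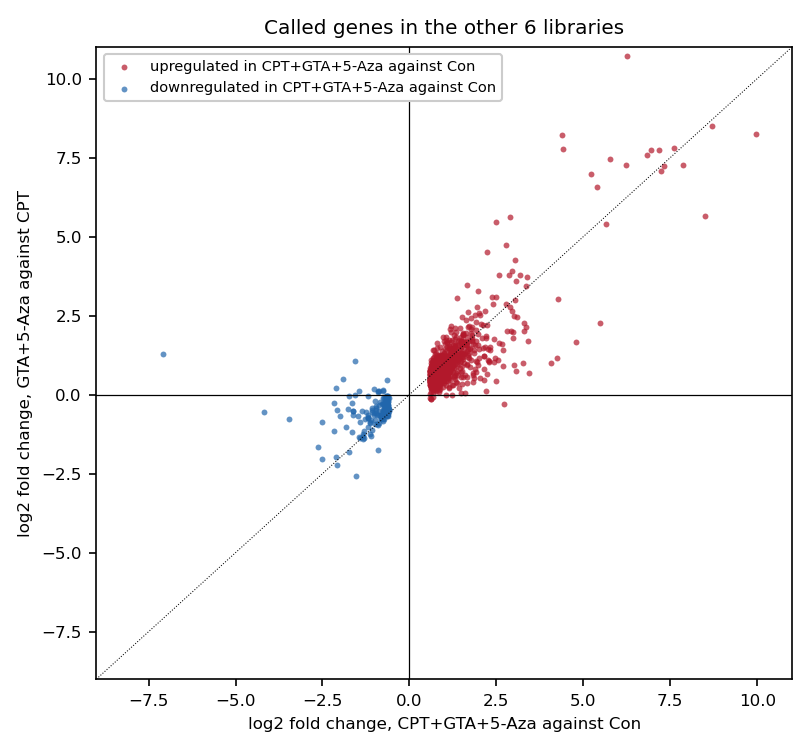
Log2 fold change in GTA+5-Aza against CPT (vertical axis) and in CPT+GTA+5-Aza against Con (horizontal axis), which share no library, for genes upregulated (red) and downregulated (blue) in the latter. The dotted line marks equal changes, and 758 of 765 upregulated and 160 of 172 downregulated genes lie on the same side of 0 in both.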

How the data were processed

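RNA of MiaPaca2 cells was sequenced in 4 groups of 3 libraries. Per the submitters' processing notes, trimming used Trim Galore, alignment HISAT2 2.2.1 on GRCh38 and counting HTSeq, and the authors deposited the resulting raw read counts per Ensembl gene and library. The annotation release and strand setting are not given in the sources used here, so overlapping and antisense genes cannot be told apart, and reads of near-identical genes may be lost or split. Symbols and positions were taken from GENCODE 44, where 52181 of 63677 identifiers were found, with 99.047% of all counts.

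Genes with low counts were removed with filterByExpr, and the 17123 left were fitted over all 12 libraries with TMM scaling and the quasi-likelihood test of edgeR 4.0.16 (R 4.3.3, limma 3.58.1), with 1 coefficient per group, and p-values were adjusted over all tested genes. A call needed an adjusted p under 0.05 and, where stated, a fold change above 1.5. The common dispersion was 0.0101. Counts of at most 2 in every Con library were read against a floor of 3 counts per library, which covers counting error only. The fit was tested on simulated counts. DESeq2 1.42.0, other edgeR tests, scalings, filters and a block for the replicate number were tried. Replicate numbers are shared between groups in the labels. Deviations from the group means correlated at 0.0627, 0.161 and 0.0369 between same-numbered Con and CPT+GTA+5-Aza libraries. Between differently numbered ones the correlations were -0.103 to 0.0488. These values do not settle whether the libraries are paired. The main fit did not pair them, and the block for the replicate number was run beside it.

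Genes were named by rule: those the study names, with VDR and CYP24A1, the 12 up- and 12 downregulated protein-coding genes with the smallest p and no overlap, the 8 most abundant silent ones, the 6 with the largest difference in CPM, up to 5 of each list by p, and the 5 with the smallest p in each of the interaction and the comparison with GTA+5-Aza. Some genes that this rule picks are not reported here. Other genes named, such as AREG, EREG, FOSL2, KLF4, ISG15 and CDK1, were chosen after their values were seen. Members and lists were chosen with earlier results of these data known. The 43 lists were written by hand.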

Additional observations from a re-analysis of the deposited data

How the results depend on the processing

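The excess of upregulated over downregulated genes kept its direction in every setting run. A test against a fold change of 1.5 (glmTreat) left 175 upregulated and 21 downregulated genes, or 709 and 142 at an unadjusted P under 0.05, and 216 against CPT. Without the filter on low counts 518 genes were downregulated at an unadjusted P under 0.05. Against GTA+5-Aza, 4 genes passed without the filter, 3 in the likelihood ratio test, 4 in the exact test and 2 with only those groups in the fit, and the interaction gave 11 without the filter and 3 in the likelihood ratio test. Leaving out 1 library gave 656 to 813 upregulated and 137 to 179 downregulated genes (1060 to 1193 and 312 to 364 at an unadjusted P under 0.05), 0 or 1 against GTA+5-Aza (1 without GTA+5-Aza replicate 1), 826 to 1287 against CPT and 0 in the interaction. DESeq2 gave 762 and 173, scaling by library size 897 and 149, and removal of the GC trend, chosen after seeing the data, 733 and 205. With the replicate number as a block, 793 genes were upregulated and 172 downregulated, with 0 against GTA+5-Aza, 976 against CPT and 0 in the interaction; HEY1 passed (adjusted p = 0.0372). TGFB2, uncalled at -0.06, was at 0.01 without the GC trend and between -0.23 and 0.08 with 1 library left out (0.08 without CPT+GTA+5-Aza replicate 1). The pseudogene UPF3AP3, also uncalled, ranged from -0.45 (without Con replicate 3) to 0.66, and was at -0.06 without CPT+GTA+5-Aza replicate 2 and -0.22 without CPT+GTA+5-Aza replicate 3. Over all settings 3741 values of single genes kept direction and side of the threshold, 318 lost their call and 4 gained one; the causes were not tested. Totals of 16162490 to 21224665 counts limit what can be said of genes under about 1 CPM, where the interval of a difference from GTA+5-Aza is wide.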
